A study of Mus musculus with 8 samples.

Results

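The Ly6 family genes studied here are Ly6a, Ly6c1, Ly6d, Ly6e, Ly6k, Ly6h, Lypd2, Lynx1, Slurp1 and Psca, 10 of 34964 gene names on the array. They were chosen by name from measured values of this comparison, GFP-positive against GFP-negative, so their differences are given as a description with no p-value, and counts from the fit over all probes stand only beside the share of all probes. All of their probes lie on chromosome 15 within 849 kb (mouse build mm9), and the array carries 13 of them. MAM326, a mouse mammary cancer cell line, was sorted by fluorescence into GFP-positive and GFP-negative cells 2 days after seeding, and 4 arrays were made of each, from 20 ng of total RNA per array. The cells were grown in serum-containing medium with no other treatment named, 4 independent experiments at different passages were made, and the labels do not tie arrays to experiments. The labels do not say under which promoter GFP was expressed. All samples come from 1 line, so the values describe that line.

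Ly6 family proteins share a small fold of loops held together by disulphide bonds, the three-finger fold of snake toxins. Most are tied to the outer face of the cell membrane by a glycosylphosphatidylinositol (GPI) anchor, and a few, such as Slurp1, are secreted. Ly6a, also called Sca-1, is widely used to sort blood stem cells and some mammary progenitor and tumour cells of the mouse, and Lynx1 and Slurp1 bind nicotinic acetylcholine receptors. Many of the genes arose by local duplication, so related copies lie next to each other.

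Each array probe is a single 60-base sequence, so the values of paralogs rest on the letters printed on the array. The 60-mers of the probes on which the results turn are printed here as the array files give them, 5′ to 3′ (mm9). Lynx1 and Ly6c1 each have a pair of probes, numbered 1 and 2. Ly6g and a predicted gene listed only by a transcript identifier (ENSMUST00000089689) are no members and were added after their values were seen. Capitals mark the 28 bases those last 2 probes share.
Lynx1 probe 1, chr15:74578434-74578493, minus strand: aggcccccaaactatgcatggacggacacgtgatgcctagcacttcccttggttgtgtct
Lynx1 probe 2, chr15:74581357-74581416, minus strand: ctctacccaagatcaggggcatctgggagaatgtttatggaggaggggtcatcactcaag
Ly6d, chr15:74592551-74592610, minus strand: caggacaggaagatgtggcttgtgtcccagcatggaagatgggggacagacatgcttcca
Ly6a, chr15:74825553-74825612, minus strand: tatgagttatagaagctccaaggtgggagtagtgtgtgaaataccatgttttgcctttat
Ly6c1 probe 1, chr15:74875495-74875554, minus strand: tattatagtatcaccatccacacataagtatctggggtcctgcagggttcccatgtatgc
Ly6c1 probe 2, chr15:74877785-74877844, minus strand: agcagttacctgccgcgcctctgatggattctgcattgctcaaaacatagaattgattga
Ly6g, chr15:74989023-74989082, plus strand: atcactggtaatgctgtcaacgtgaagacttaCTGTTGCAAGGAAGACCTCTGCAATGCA
ENSMUST00000089689, chr15:75066100-75066159, minus strand: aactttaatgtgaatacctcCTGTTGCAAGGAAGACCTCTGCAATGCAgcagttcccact

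The 26 probes of the members, of other family genes in this stretch of chromosome 15, of ENSMUST00000089689 and of Gm3142 gave 325 pairs. Apart from 2 Gml probes that overlap by 43 bases, 1 pair shared a run of 12 or more bases, that of Ly6g and ENSMUST00000089689, and the next longest run was 9 bases. Looser matches were longer: the I830127L07Rik probe matches 28 of 32 aligned bases of the Ly6g probe and 27 of 35 of the ENSMUST00000089689 probe, and the last 2 match each other at 39 of 44. The G and C content of the member probes was between 38.3% (Ly6a) and 55% (Ly6d, Ly6e and Lynx1 probe 1). Probes were compared only with each other and not with transcripts, so these runs do not show which transcripts a probe binds. Ly6c2, another family gene of the cluster, had no probe among them. The exon or untranslated region in which a probe lies was not analysed here.

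Values are log2 signals relative to the 75th percentile of the same array, so a level of 0 is that percentile, and signals of different probes are not compared as amounts of RNA. Between 25105 and 31965 probes per array were well above background, and no spot was saturated. All 8 arrays lay on 1 slide in 2 rows: row 1 held GFP-positive replicates 1 and 3 and GFP-negative replicates 2 and 4, and row 2 held the others. The column of each array on the slide was the same as its replicate number, so column and replicate number cannot be told apart. Row 1 arrays had 28333 to 31965 probes above background and row 2 arrays 25105 to 26790. Differences within each row, 2 arrays against 2, are given beside the main ones. Within a row the GFP-positive and GFP-negative arrays carry different replicate numbers, so such a difference also sets replicates 1 and 3 against replicates 2 and 4. Across the groups, replicate 1 varied with replicate 3 and replicate 2 with replicate 4: deviations from the group means over all tested probes correlated at 0.57 for GFP-positive replicate 3 with GFP-negative replicate 1, at 0.40 for 1 with 3, at 0.62 for 4 with 2 and at 0.31 for 2 with 4. Differences within replicates 1 and 3 and within replicates 2 and 4, a split chosen after seeing the data, are therefore given for the members whose rows disagreed. Probes well above background on at least 4 arrays were tested, 27574 of 55681.

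Of the 13 member probes, 11 passed that filter, covering 9 of the 10 genes. The difference, GFP-positive minus GFP-negative, was above 0 for 9 of these probes and below 0 for 2, and the median log2 difference was 0.79, where that over all tested probes was -0.06. For 6 probes of 5 genes (Ly6d, Ly6a, Ly6c1, Lynx1 and Ly6e) every GFP-positive array was above every GFP-negative array. Over all tested probes this was so for 4.90%, and the opposite, every GFP-positive array lower, for 10.9%. In limma's fit over all tested probes, 0 member probes passed an adjusted p of 0.05, where 2.00% of all tested probes did (552, of which 420 were higher and 132 lower). The split over all probes moved with the processing: it was 528 higher and 74 lower with the percentile taken over probes above background on all arrays, 510 and 386 with normexp background correction, and 468 and 302 with only probes above background on all arrays. It turned to fewer higher than lower with array weights (971 and 1143) and with a robust prior trended on intensity (647 and 702). An unadjusted p under 0.05 in limma was met by 7 member probes in the higher direction and by 0 in the lower, where 7.75% of all tested probes met it in the higher and 14.0% in the lower direction. The members were chosen on this contrast, so nothing is read from these counts.

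**Figure D1:**
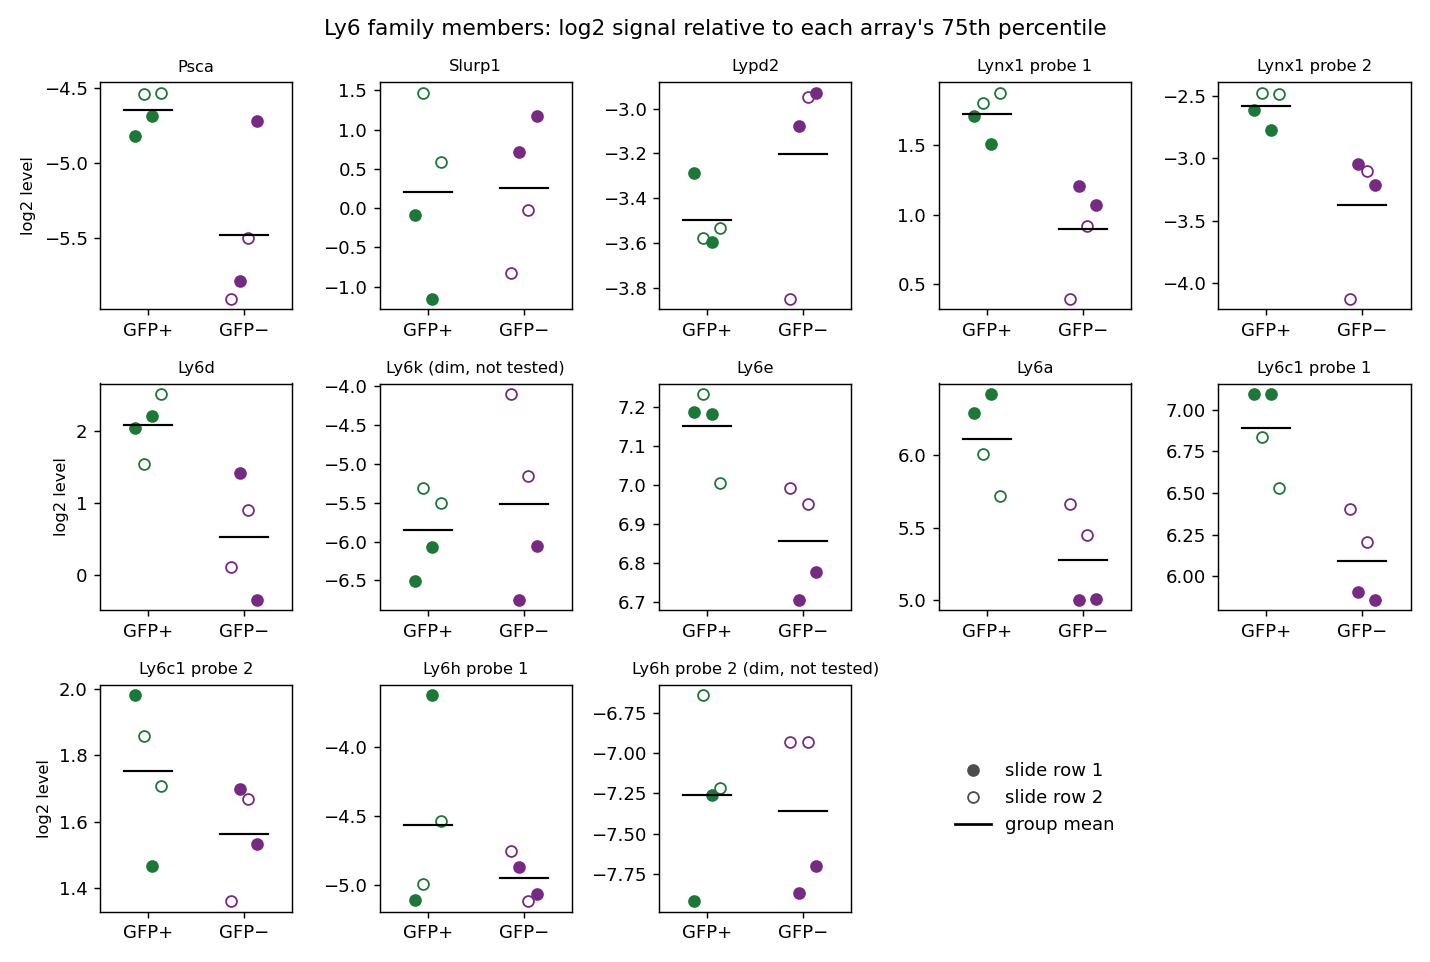
Each panel plots 1 probe of a member: the y axis is the log2 level relative to the array's 75th percentile, points are arrays (GFP-positive left, GFP-negative right, 4 each; filled for slide row 1, open for slide row 2) and the line is the group mean. For Ly6d, Ly6a, Ly6e, both Lynx1 probes and Ly6c1 probe 1 all GFP-positive points lie above all GFP-negative points; for Slurp1 the groups overlap over their whole range.

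Among the surface antigens, Ly6a (NM_010738) read 6.29, 6.01, 6.42 and 5.72 in GFP-positive replicates 1 to 4, against 5.66, 5.00, 5.45 and 5.01 in GFP-negative replicates 1 to 4. The lowest GFP-positive array was 0.06 above the highest GFP-negative one, so the groups did not overlap but came close. The mean of GFP-positive arrays was 6.11 ± 0.31 and that of GFP-negative arrays 5.28 ± 0.33 (SD, n = 4 each), a difference of 0.83 ± 0.21 (SE) or 1.78-fold. Within row 1 it was 1.35 and within row 2 it was 0.31, so its size differed between the rows by more than 1 on the log2 scale. Within replicates 1 and 3 it was 0.80 and within replicates 2 and 4 it was 0.86, nearly the same.

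Ly6c1, a surface antigen of monocytes and some endothelial cells, was measured by both of its probes, which gave different answers. Probe 1 (NM_001252055) read 7.10, 6.84, 7.10 and 6.53 in GFP-positive cells, against 6.40, 5.91, 6.21 and 5.86 in GFP-negative cells. These groups did not overlap, and the difference was 0.80 ± 0.17 (SE, n = 4 each), with 1.22 in row 1 and 0.38 in row 2, and with 0.79 within replicates 1 and 3 and 0.80 within replicates 2 and 4. Probe 2 (NM_001252058), 2.3 kb away, read 1.98, 1.86, 1.47 and 1.71 in GFP-positive cells, against 1.36, 1.70, 1.67 and 1.53 in GFP-negative cells. Its groups overlapped and its difference was 0.19 ± 0.13. Across the 8 arrays the 2 Ly6c1 probes correlated at r = 0.33 (Spearman's coefficient 0.26), and at -0.23 after removing each group's mean.

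Ly6e, an interferon-induced antigen that in the mouse placenta is the receptor of syncytin-A, read 7.19, 7.23, 7.18 and 7.01 in GFP-positive cells, against 6.99, 6.70, 6.95 and 6.78 in GFP-negative cells. The groups were 0.02 apart at their nearest and the difference was 0.30 ± 0.09, or 1.23-fold. It was 0.44 in row 1 and 0.15 in row 2, and 0.21 within replicates 1 and 3 and 0.38 within replicates 2 and 4.

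Ly6d, an antigen of early B cells and of stratified epithelium, had the widest difference among the members. It read 2.04, 1.55, 2.21 and 2.52 in GFP-positive cells, against 0.12, 1.41, 0.91 and -0.35 in GFP-negative cells. The groups did not overlap, although GFP-negative replicate 2 came within 0.13 of the lowest GFP-positive array. The difference was 1.56 ± 0.39 (SE, n = 4 each), or 2.95-fold, and was alike in both rows, at 1.60 and 1.52. Its replicates were spread more widely in GFP-negative cells (SD 0.79) than in GFP-positive cells (SD 0.41).

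Psca, prostate stem cell antigen, a GPI-anchored protein of several epithelia, was dim. Its probe (chr15:74546879-74546938) read -4.82, -4.54, -4.69 and -4.53 in GFP-positive cells, against -5.91, -5.79, -5.50 and -4.72 in GFP-negative cells. It was well above background on 3 of 4 GFP-positive and 1 of 4 GFP-negative arrays, and GFP-negative replicate 4 lay among the GFP-positive values. The difference was 0.83 ± 0.24, with 0.50 in row 1 and 1.17 in row 2, 0.95 within replicates 1 and 3 and 0.72 within replicates 2 and 4, and it was 0.14 with normexp background correction. Lypd2, an LU-domain gene next to Slurp1, read -3.29, -3.58, -3.59 and -3.53 in GFP-positive cells, against -3.85, -3.08, -2.95 and -2.93 in GFP-negative cells. Its groups overlapped, and its difference of -0.30 ± 0.21 was below 0 in both rows (-0.44 and -0.16).

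Of the genes whose products act on nicotinic receptors, Lynx1 was measured by both of its probes, 2.9 kb apart, with like differences. Probe 1 read 1.71, 1.81, 1.51 and 1.88 in GFP-positive cells, against 0.40, 1.21, 0.92 and 1.07 in GFP-negative cells. The groups were 0.30 apart at their nearest, and the difference was 0.83 ± 0.18 (SE, n = 4 each), or 1.78-fold. Probe 2 read -2.61, -2.48, -2.77 and -2.49 in GFP-positive cells, against -4.13, -3.05, -3.10 and -3.22 in GFP-negative cells. Its groups did not overlap either, and its difference was 0.79 ± 0.23. Both probes differed more within row 2 (1.19 and 1.13) than within row 1 (0.47 and 0.44), the opposite order of Ly6a and Ly6c1 probe 1. The differences were 0.95 and 0.92 within replicates 1 and 3, and 0.71 and 0.65 within replicates 2 and 4. GFP-negative replicate 1 was the lowest array on both.

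Slurp1, a secreted protein of keratinocytes whose human gene is mutated in the skin disease Mal de Meleda, read -0.09, 1.47, -1.16 and 0.59 in GFP-positive cells, against -0.82, 0.71, -0.02 and 1.18 in GFP-negative cells. The groups covered nearly the same range, and the difference was -0.06 ± 0.61. The rows differed in sign, with -1.56 within row 1 and 1.45 within row 2, whereas it was -0.20 within replicates 1 and 3 and 0.09 within replicates 2 and 4. Ly6h, a brain member of the family, read -5.11, -4.99, -3.62 and -4.53 in GFP-positive cells, against -4.75, -4.87, -5.12 and -5.06 in GFP-negative cells on the probe at chr15:75395175-75395234. It was above background on 3 GFP-positive and 2 GFP-negative arrays, its groups overlapped and its difference was 0.39 ± 0.31. The other Ly6h probe was not well above background on any array.

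Ly6k, a testis member needed by mouse sperm, was well above background on 0 GFP-positive arrays and 1 GFP-negative array, replicate 1 with a level of -4.10. It was not tested. It is the 1 member without a tested probe.

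**Figure D2:**
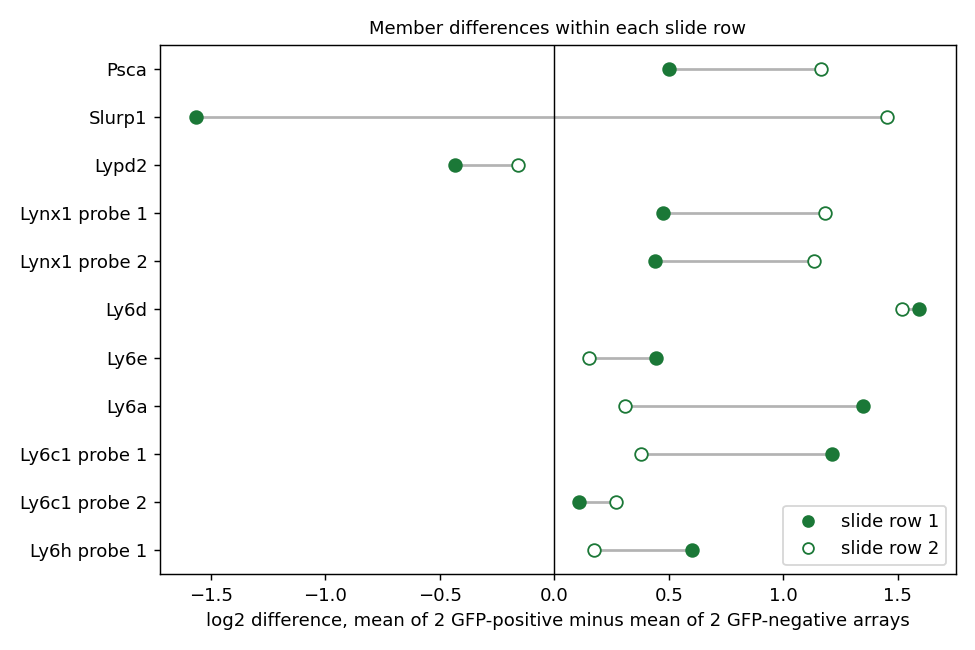
For each tested member probe, the x axis gives the log2 difference between the mean of 2 GFP-positive and the mean of 2 GFP-negative arrays within slide row 1 (filled) and within slide row 2 (open). Ly6d is nearly equal in both rows (1.60 and 1.52), Ly6a and Ly6c1 probe 1 are wider in row 1, Lynx1 and Psca are wider in row 2, and Slurp1 changes sign.

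The members did not vary as 1 block across arrays. Ly6a and Ly6c1 probe 1 correlated at r = 0.99 over the 8 arrays (Spearman's coefficient 0.98, and r = 0.99 of the deviations from each group's mean). Ly6e followed them less closely, at r = 0.95 with Ly6a (0.85 of deviations). Among all tested probes it had rank 227 by this correlation, and rank 1673 in the deviations. Lynx1 probe 1 correlated with Ly6a at 0.48 over all arrays and at -0.86 in the deviations, and Slurp1 at -0.49 and -0.83. These are descriptions over 8 arrays of 1 slide that share their preparation, and no p is attached.

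Some other genes that sit near Ly6a followed it as closely as Ly6c1 probe 1 did, and others did not. Among all tested probes, that of Ly6g, a granulocyte antigen, had the highest correlation with Ly6a (r = 0.998, Spearman's coefficient 0.976, 0.995 in the deviations, and 0.996 without the 2 arrays farthest from the Ly6a median). The probe of 9030619P08Rik, a Ly6-like gene 435 kb from the Ly6a probe, had rank 3 (0.995), Ly6c1 probe 1 rank 4, and the ENSMUST00000089689 probe rank 10 (0.991). I830127L07Rik (0.925, rank 413), Gm3142 (0.89, rank 755) and Ly6f (0.773, rank 1941) were lower, so many probes followed Ly6a more closely than they did. These genes were named after their values were seen. Ly6i, 15.1 kb from Ly6a, did not follow it (r = -0.03) and was well above background on 4 arrays. Apart from Ly6g and ENSMUST00000089689, none of these probe pairs shares a run of 12 bases, although I830127L07Rik matches both of those probes over more than 30 aligned bases, and whether 1 transcript binds several of the probes was not tested.

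**Figure D3:**
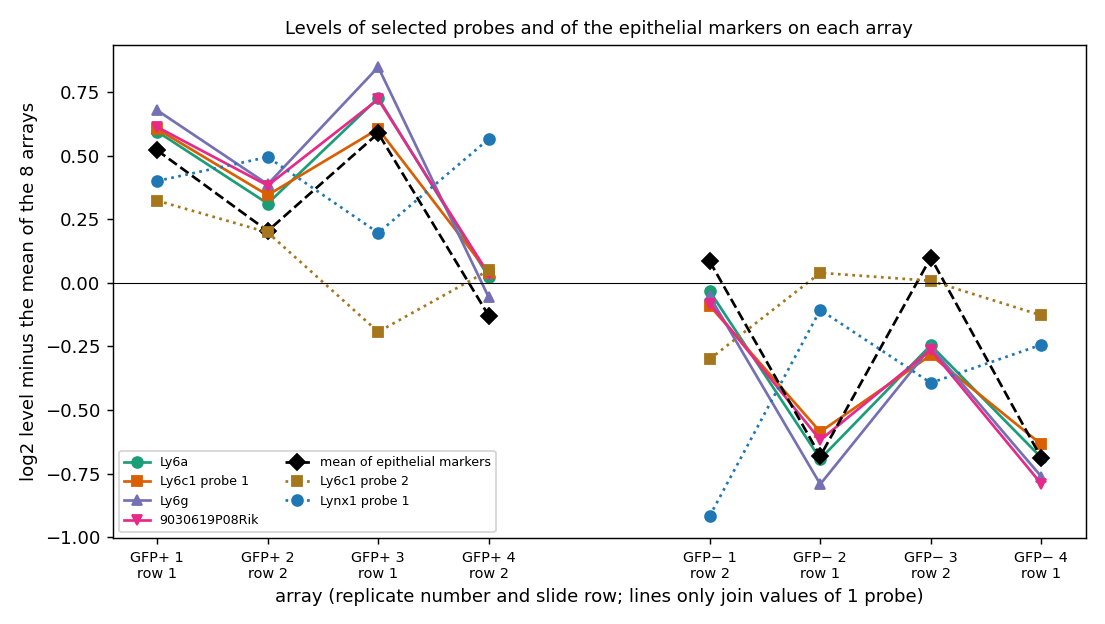
The y axis is the log2 level minus the mean of the 8 arrays and the x axis lists the 4 GFP-positive and then the 4 GFP-negative arrays with their slide row. Ly6a, Ly6c1 probe 1, Ly6g and 9030619P08Rik run nearly on top of each other and beside the mean of 10 epithelial markers, whereas Ly6c1 probe 2 and Lynx1 probe 1 take other courses.

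Markers of cell types moved with these arrays. All 10 epithelial markers, among them Krt8, Krt5, Krt14 and Epcam, had a tested probe. Each of the 10 differed upward, and 0 passed limma's threshold. By unadjusted p under 0.05 in limma, 3 were higher and 0 lower, where 7.75% and 14.0% of all tested probes were. Their mean level was 4.17, 3.86, 4.24 and 3.52 in GFP-positive cells, against 3.74, 2.97, 3.75 and 2.96 in GFP-negative cells. The groups overlapped, and the difference of this mean was 0.59. It was 1.24 within row 1 and -0.05 within row 2, and 0.46 within replicates 1 and 3 and 0.72 within replicates 2 and 4. This mean correlated with Ly6a at r = 0.952 (Spearman's coefficient 0.881, 0.967 in the deviations, and 0.87 without the 2 arrays farthest from its median), with Ly6c1 probe 1 at 0.927 and with Lynx1 probe 1 at 0.276 (-0.781 in the deviations).

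Of 10 fibroblast markers, 8 were tested, and Fap and Lum were not above background on any array. The mean level of the 8 was -1.01, -0.22, -2.52 and 0.45 in GFP-positive cells, against -1.08, 1.33, 0.33 and 0.72 in GFP-negative cells. It was lowest in GFP-positive replicate 3, where Ly6a was highest. The groups overlapped, with a difference of -1.15. It was -2.79 within row 1 and 0.49 within row 2, and -1.39 within replicates 1 and 3 and -0.91 within replicates 2 and 4. Col1a1, Col1a2, Col3a1, Pdgfra, Pdgfrb and Dcn were above background on all 8 arrays, with differences between -2.12 and -1.05. Thy1, above background on 7 arrays, differed by 0.39 ± 0.38 and Postn, on 6, by 0.30 ± 0.81, so 2 of the 8 were higher and 6 lower, and 0 fibroblast markers passed limma's threshold (by unadjusted p under 0.05, 0 were higher and 1 lower). The fibroblast mean correlated with Ly6a at r = -0.857 (Spearman's coefficient -0.81, and -0.707 without the 2 farthest arrays). The part of these markers in the Ly6a and Ly6c1 differences was not tested, and fewer cells of a type and less RNA per cell cannot be told apart in these bulk samples.

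Of 15 leukocyte markers, 7 were tested, and Itgax and Lyz2 were among those not above background on any array. Their mean level lay between -0.16 and 0.28 in GFP-positive cells and between -0.42 and 0.01 in GFP-negative cells. Cd68, a lysosomal protein of macrophages, rose by 1.00 ± 0.11 (adjusted p = 0.00514, limma), and Cd3e, Cd79a, Itgam, Csf1r and S100a8 were above background on all arrays with differences between -0.08 and 0.46 that did not pass. Of 10 endothelial markers, 4 were tested; Cdh5, Cldn5, Emcn, Tek and Tie1 were not above background on any array, and Esam, Kdr and Eng, above background on all, differed by -0.21 to 0.30 without passing. The mean of the endothelial markers lay between -1.97 and -1.61 in GFP-positive cells and between -2.09 and -1.60 in GFP-negative cells.

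The rest of the family was read from 38 further names, of which 32 were on the array and 19 had a tested probe. Of these 19, 13 differed upward and 6 downward, with a median of 0.15. By unadjusted p under 0.05 in limma, 6 were higher and 0 lower, where 7.75% and 14.0% of all tested probes were. An adjusted p of 0.05 in limma was passed by 1 gene, where 2.00% of all tested probes passed it. That gene, Pinlyp, a phospholipase A2 inhibitor with an LU domain on chromosome 7, was well above background on 4 GFP-positive and 0 GFP-negative arrays. It passed the filter on dim probes only through the GFP-positive arrays, so it had to differ. It read between -4.08 and -3.59 in GFP-positive cells, against -5.65, -5.61, -5.59 and -7.5 in GFP-negative cells. This made it at least 2.49-fold higher in the GFP-positive arrays. Nothing is read from its adjusted p (0.0435, limma), because the filter let it in only where it was high. The bound sets its mean GFP-positive level against the higher, on each GFP-negative array, of its own signal and the lowest signal well above background. The call was lost in 14 of the 21 alternative analyses that measured it. These included leaving out any 1 of the 8 arrays except GFP-negative replicate 4, slide row as a block, and no filter on dim probes.

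The genes in this paragraph, among them Cd59a, an inhibitor of complement, did not pass and are named after their values were seen. Ly6g read 1.71, 1.42, 1.88 and 0.97 in GFP-positive cells, against 0.98, 0.24, 0.78 and 0.27 in GFP-negative cells, a difference of 0.93 ± 0.24 with groups that just overlapped (adjusted p = 0.0884, limma). 9030619P08Rik differed by 0.88 ± 0.20 (adjusted p = 0.069, limma) and Cd59a by 1.08 ± 0.28 (adjusted p = 0.0903, limma), both with groups that did not overlap. The ENSMUST00000089689 probe, whose transcript is not named in the tables used, differed by 0.91 ± 0.18 with groups that did not overlap (adjusted p = 0.05002, limma). Under the 22 alternatives the threshold was passed by the ENSMUST00000089689 probe in 10, by 9030619P08Rik in 5 and by Ly6g in 2, and by Cd59a in 0 of the 21 that measured it. Plaur, the urokinase receptor, at -0.27 ± 0.19, and Gpihbp1, which carries lipoprotein lipase into capillaries, at -0.07 ± 0.16, were below 0.

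**Figure D4:**
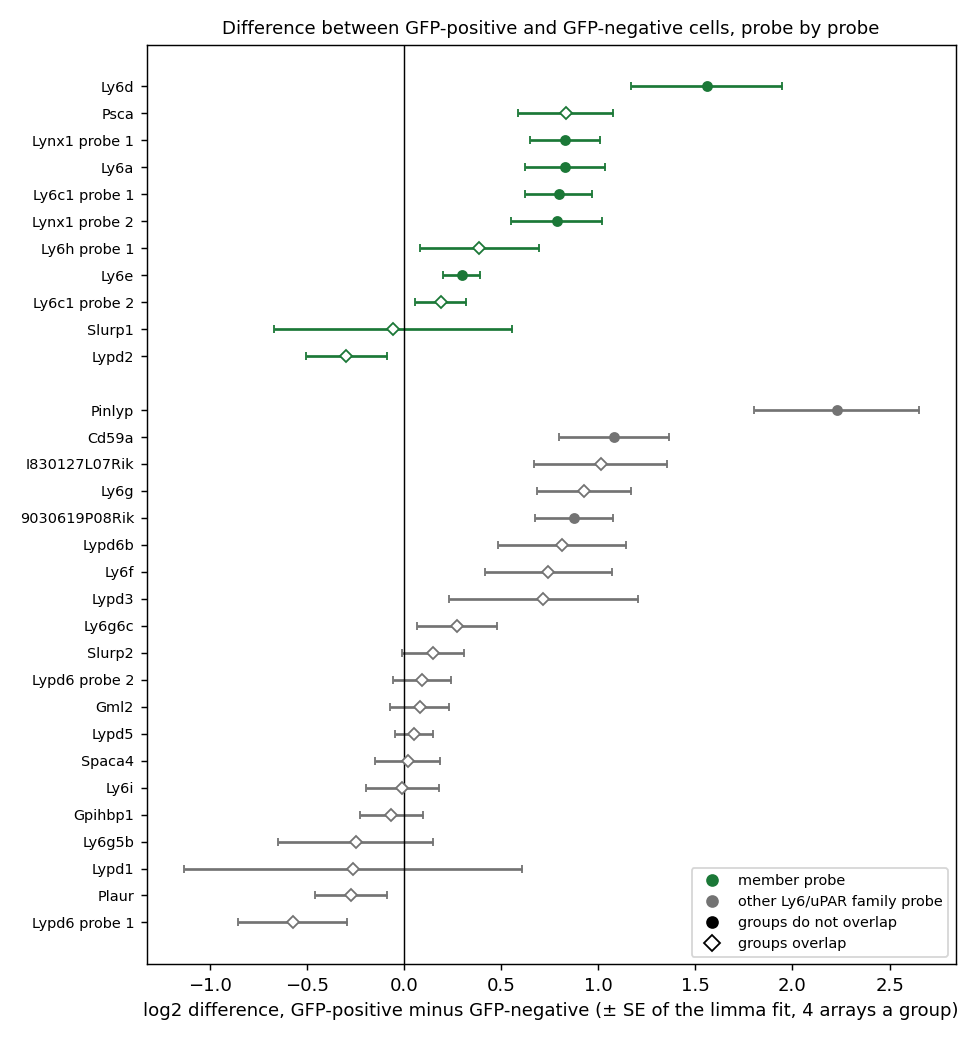
The x axis is the log2 difference, GFP-positive minus GFP-negative, with its standard error (limma, 4 arrays a group), for the 11 tested member probes (green) above the tested probes of other family genes (grey); circles mark groups that do not overlap. Ly6d is the widest member at 1.56 and Pinlyp the widest tested relative, while Slurp1, Slurp2, Ly6i, Gpihbp1 and Plaur lie near or below 0. The Gml probes were too dim to be tested (differences of 2.54 and 2.05) and are not drawn.

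Along the chromosome, 28 non-family genes within 500 kb of the member probes were on the array and 23 were tested. Of these, 11 differed upward and 12 downward with a median of -0.02. The adjusted threshold in limma was passed by 2, where 2.00% of all tested probes passed it. By unadjusted p under 0.05 in limma, 4 were higher and 2 lower, where 7.75% and 14.0% of all tested probes were. Adgrb1, an adhesion receptor through which apoptotic cells are taken up, lies at -127.1 kb from the Psca probe. It read -3.35, -3.45, -2.92 and -2.72 in GFP-positive cells, against -4.36, -4.62, -5.16 and -4.64 in GFP-negative cells. It rose by 1.59 ± 0.22 (adjusted p = 0.0121, limma), with 1.495 in row 1 and 1.68 in row 2, and was above background on 4 GFP-positive and 2 GFP-negative arrays. The difference was 0.51 with normexp background correction. The call was lost in 5 of the 21 alternatives that measured it, among them no filter on dim probes, replicate number as a block and row 2 alone. Rhpn1 lies 997 kb after the Psca probe and rose by 0.57 ± 0.11 (adjusted p = 0.0491, limma). That call was lost in 15 of the 22 alternatives, among them any 1 array left out except GFP-positive replicate 2. Others were slide row as a block, quantile normalization and no filter on dim probes.

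Differences were not uniform along the cluster. Going from Psca along the members, Slurp1 and Lypd2 at 10 and 16 kb did not exceed 0, and Lynx1 and Ly6d at 32 to 46 kb did. Ly6e at 243 kb was smaller, and Ly6a and Ly6c1 probe 1 at 279 and 329 kb were again near 0.8. Ly6c1 probe 2 at 331 kb differed by 0.19 ± 0.13 and the dim Ly6h at 848 kb by 0.39 ± 0.31, both with groups that overlapped. Arc, Jrk and Them6, which lie on either side of Psca within 48 kb, differed by -0.08 ± 0.52, -0.06 ± 0.10 and -0.33 ± 0.28. Gm3142, at 610 kb, differed by 1.12 ± 0.24 (adjusted p = 0.0575, limma). These 4 neighbours were named after their values were seen.

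**Figure D5:**
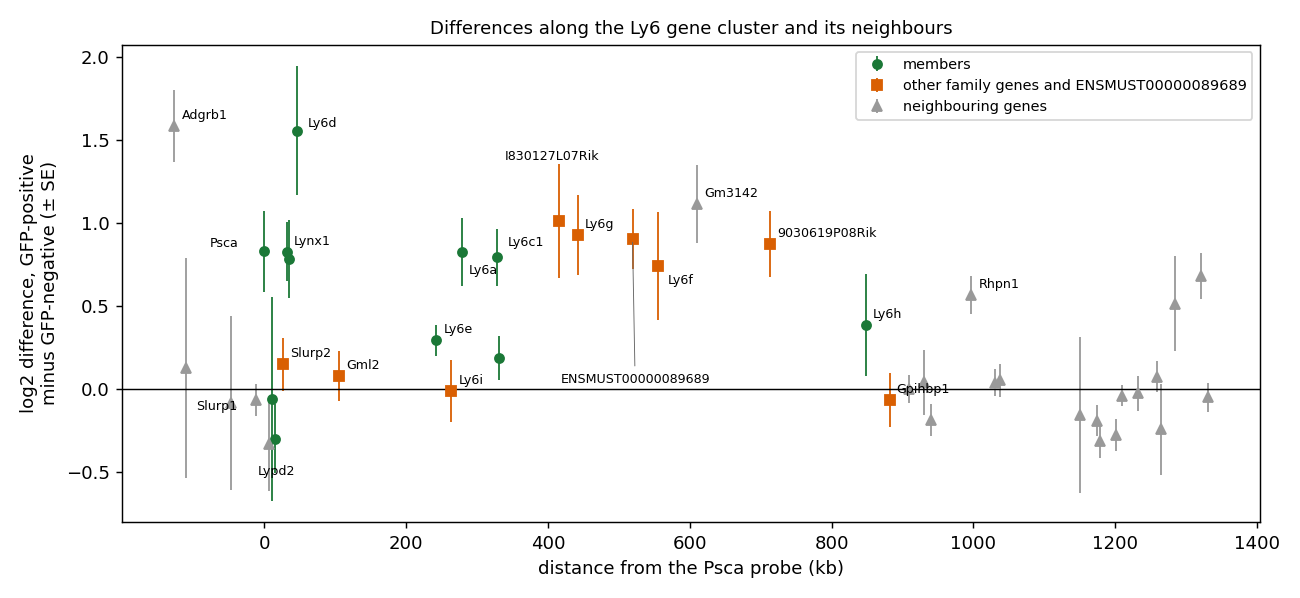
The x axis is the distance from the Psca probe in kb and the y axis the log2 difference, GFP-positive minus GFP-negative, with its standard error, for members (circles), other family genes and ENSMUST00000089689 (squares), and neighbouring genes (triangles). Values up to 1.59 (Adgrb1) stand close to values near 0, and beyond the Ly6h probe most neighbours lie near 0.

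Genes tied to the members by role were counted by their brightest tested probe. Of 6 tested nicotinic receptor subunits, 0 passed in limma (also 0 at an unadjusted p under 0.05), with a median difference of 0.14. Of 26 tested genes that build and attach the GPI anchor, 0 passed (1 higher and 0 lower by unadjusted p under 0.05), with a median of 0.02. Over all tested probes the median was -0.06 and 2.00% passed. By unadjusted p under 0.05 in limma, 7.75% of them were higher and 14.0% lower.

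Of 26 tested interferon-induced genes, 2 passed, both higher, where 2.00% of all tested probes passed, and the median was 0.04. By unadjusted p under 0.05 in limma, 5 were higher and 0 lower, where 7.75% and 14.0% of all tested probes were. Tap1, the peptide transporter of antigen presentation, read -0.59, -0.96, -0.64 and -0.68 in GFP-positive cells, against -2.46, -1.97, -2.19 and -2.38 in GFP-negative cells, and rose by 1.53 ± 0.13 (adjusted p = 0.00146, limma). Usp18, a protease that removes ISG15, rose by 1.17 ± 0.20 (adjusted p = 0.0326, limma). Its call was lost in several alternatives. Among them were any 1 array left out except GFP-negative replicate 2, slide row or replicate number as a block, and no filter on dim probes. Of 24 tested genes of squamous differentiation, the setting in which Ly6d and Slurp1 are known, 18 differed upward with a median of 0.43. In limma 0 of them passed (4 higher and 0 lower by unadjusted p under 0.05). Over all tested probes 11055 of 27574 differed upward, and 7.75% were higher and 14.0% lower by unadjusted p under 0.05 in limma. Most of the 24 genes were above 0 within row 1 and most were below 0 within row 2.

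The genes with the most similar course were sought for the 3 members with the widest differences, by Pearson correlation over 8 arrays among 13240 genes with a symbol. For Ly6d these were Jak3, a cytokine receptor kinase (r = 0.971), Sohlh1, a germ cell transcription factor (0.969), and Tpp1, a lysosomal peptidase (0.963). For Psca they were Col10a1, a cartilage collagen (0.967), Vat1 (0.961) and Crnkl1, a splicing factor (0.927, with Spearman's coefficient 0.619). For Lynx1 they were Fetub (0.986), Tmem53 (0.979) and St3gal3, a sialyltransferase (0.979). These 9 were picked for tracking members chosen on this contrast, so their own differences are not given, and the rank of Psca among the 3 members and its similar genes rest on signal near background. None of the 9 lies on chromosome 15, and a high rank among so many genes over 8 arrays is a description only.

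Promoter windows from 250 bases before to 50 bases after a start (RefSeq, GRCm38.p6, a build other than that of the probes) were read for motifs on both strands. Of the members, only Ly6c1 had such windows, 2 of them, so no promoter of another member was read. The window at chr15:75048788-75049087 (minus strand) is printed below, with capitals marking the TATAAA found in it. The distance of these letters from the start was not analysed. The other window (chr15:75048614-75048913) holds no TATAAA.
Ly6c1 promoter: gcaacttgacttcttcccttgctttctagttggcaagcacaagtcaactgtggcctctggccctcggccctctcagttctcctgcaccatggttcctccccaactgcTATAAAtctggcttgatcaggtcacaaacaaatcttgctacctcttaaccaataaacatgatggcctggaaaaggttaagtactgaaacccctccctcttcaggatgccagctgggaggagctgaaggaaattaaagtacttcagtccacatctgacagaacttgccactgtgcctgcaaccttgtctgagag
TATAAA was in 13.6% of 32851 windows of this length. Among the family genes of the cluster that are no members, both Ly6g windows and the Ly6f window held it, and neither Ly6c2 window did. The letters GAAANNGAA, the core of an interferon-response element (in 8.56% of windows), TTCNNNGAA, a STAT site (8.30%), and TGANTCA, an AP-1 site (7.81%), were in neither Ly6c1 window.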

How the data were processed

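The 8 files are scanner outputs of one-colour Agilent arrays, 1 array each, made with Agilent Feature Extraction 10.7.3.1, protocol GE1_107_Sep09, with probe positions on mm9, per the file headers. The deposited intensity values used were the processed signal, which the program had corrected for background, and, in the alternative background correction, the mean signal with the median local background. No source used here gives the authors' later steps.

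Control spots and flagged spots (106 to 186 per array) were left out, log2 processed signals were set relative to each array's 75th percentile, and spots of a probe were averaged. Probes were kept where at least 4 of 8 arrays were well above background, 27574 of 55681, for 19767 genes. GFP-positive minus GFP-negative was fitted probe by probe in limma 3.58.1 by lmFit and eBayes (two-sided, no replicate block; R 4.3.3) with Benjamini-Hochberg adjustment over all kept probes and a threshold of 0.05. Differences carry the standard error of the fit, and SDs are over 4 arrays. The number of arrays limits the precision, and p-values measure the spread between these arrays, which may be partly technical. Lists were counted by each gene's brightest kept probe. Accessions of 27509 probes (49.4%) matched RefSeq genes of GRCm38.p6, used for symbols and promoters only. The steps were tested on simulated data.

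The members, lists and tests were chosen with earlier results of these data known. The named genes were all members, relatives and neighbours past the threshold (up to 8 each), up to 4 genes past it from each further list, the most similar genes of 3 members, and marker genes; others are said to be named after their values were seen. The alternatives were another background correction, normalizations, scaling, filters, array weights, a trended robust prior, replicate number or slide row as a block, each row alone, and each array left out; replicates 1 and 3 alone and 2 and 4 alone were added after seeing the data. Member proteins were not analysed here.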

Additional observations from a re-analysis of the deposited data

Results flagged for a closer look

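In 6 of 110 groups of 4 arrays examined (member, family and neighbour probes), 1 array stood apart, its gap to the nearest other being over 0.829 of the group's whole range. Chance gives about 1 in 20 such groups, and no explanation was weighed. All 6 arrays were GFP-negative and the lowest of their group. Among the members, Lypd2 was at -3.85 in GFP-negative replicate 1, against -3.08 to -2.93 in the other GFP-negative arrays. Lynx1 probe 2 was at -4.13 in the same array, against -3.22 to -3.05 in the others. Lynx1 probe 1 was lowest there too, without meeting the criterion.

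Among family genes, Lypd6 was at -4.25 in GFP-negative replicate 3 (others -3.74 to -3.64), Lypd6b at -3.89 in GFP-negative replicate 4 (others -2.84 to -2.63) and Pinlyp at -7.5 in GFP-negative replicate 4 (others -5.65 to -5.59). The neighbour Mroh4 was at -3.4 in GFP-negative replicate 1, against -1.16 to -1.04 in the others.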

How the results depend on the processing

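Under the 22 alternatives, 2 of them (replicates 1 and 3 alone, replicates 2 and 4 alone) chosen after seeing the data, and wherever a probe was kept, the differences of Ly6d (1.27 to 1.86), Ly6a (0.31 to 1.35), Ly6c1 probe 1 (0.38 to 1.22), Ly6e (0.15 to 0.46), Lynx1 probe 1 (0.47 to 1.19), Psca (0.14 to 1.17), Lynx1 probe 2 (0.37 to 1.13), Ly6c1 probe 2 (0.11 to 0.29) and Ly6h (0.07 to 0.60) stayed above 0 and that of Lypd2 (-0.55 to -0.04) below 0, whereas Slurp1 ran from -1.56 to 1.45. The number of member probes past the threshold, 0 as reported, was 3 with normexp background correction, 1 with the 75th percentile over probes above background on all arrays, 2 with the filter at all 8 arrays, 4 with array weights, 3 with an intensity trend and robust prior and 2 within slide row 1. Leaving out 1 array gave 0 to 1, the 1 without GFP-negative replicate 4. The 552 calls over all probes became 896 with normexp, 160 without a filter on dim probes, 2114 with array weights, 1349 with the trended prior, 335 with slide row as a block, 1268 within row 1, 0 within row 2 (by unadjusted p under 0.05 in limma, 1500 higher and 1485 lower) and 181 to 439 without 1 array. The 1 call among other family genes became 2 with normexp, 0 without a filter, 0 with the filter at all 8 arrays, 3 with array weights, 2 with the trended prior, 0 with slide row as a block, 3 within row 1, 0 within row 2 and 0 to 1 without 1 array. The 2 calls among neighbours became 3 with normexp, 3 with the 75th percentile over probes above background on all arrays and 3 with 1 probe per gene. They became 0 without a filter, 4 with array weights, 4 with the trended prior, 1 with slide row as a block, 0 within row 2 and 1 to 2 without 1 array. With quantile normalization 2 passed, but 4933407E14Rik replaced Rhpn1. With the filter at all 8 arrays 2 passed, but 4933407E14Rik replaced Adgrb1, which was not kept. The 2 interferon-induced calls became 1 without a filter, 3 with array weights, 1 with slide row as a block, 1 within row 1, 0 within row 2 and 1 to 2 without 1 array. The squamous list, with 0 calls, had 1 with normexp, 2 with the filter at all 8 arrays, 2 with array weights, 2 with the trended prior, 5 within row 1 and 0 to 1 without 1 array. The nicotinic receptor list had 1 call within row 1, and the GPI anchor list 1 with array weights and 1 within row 1, with 0 for both without any 1 array. Within replicates 1 and 3 alone, and within 2 and 4 alone, 0 probes passed in all (by unadjusted p under 0.05 in limma, 1888 higher and 2001 lower in replicates 1 and 3, 1735 higher and 1665 lower in replicates 2 and 4), and so 0 in every list. Causes of these shifts were not tested. Rows and these replicate pairs held 2 arrays against 2, and signals near background (Psca, Ly6h, Ly6k, Pinlyp, Adgrb1) are the least certain.

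With replicate number as a block, which is also the slide column, 220 probes passed in all. Of these, 1 was a member probe, 0 were neighbours and 1 was an interferon-induced gene (Tap1). Among other family genes the count stayed at 1, but Pinlyp was lost and 9030619P08Rik passed, as did the ENSMUST00000089689 probe. Deviations of same-numbered arrays from their group means correlated at -0.02, 0.08, 0.03 and 0.16, and no array correlated best with its own number. The numbers were therefore not taken to pair the arrays.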
